A study of Homo sapiens with 64 samples.

Results

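The S100 family of calcium-binding proteins was followed by the RNA of 10 members, S100A2, S100A3, S100A4, S100A6, S100A10, S100A11, S100A13, S100A14, S100A16 and S100P, out of 54127 genes listed by Ensembl identifier in each of 64 libraries. The members were found by the identifiers that carry these symbols, and all 10 were found. RNA sequencing was performed on 6 established human colorectal cancer cell lines grown as nonadherent, serum-free spheroids with EGF and bFGF. The lines represent the colorectal cancer subtypes CCS1 (HT55 and SW948), CCS2 (RKO and SW48) and CCS3 (DLD1 and HCT15). All sorted cells had been loaded with CFSE, a dye that each division dilutes, and were sorted on day 6 into label-retaining cells (LRCs, CFSE bright) and non-LRCs, labeled BULK. LRCs are therefore set apart from non-LRCs by how much dye they kept, within the same line and treatment. Each line gave 4 libraries of each population, 48 in all. A further 16 libraries, labeled as unsorted DLD1 controls, were loaded with CFSE or with DMSO alone and taken on day 1 or on day 6 after seeding (day 5 in the sample labels), with 4 libraries per group. Each line is 1 culture model of 1 tumor.

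S100 proteins are small proteins with a pair of EF hands, the loop structures that hold calcium. On binding calcium, most of them turn outward a surface that grips other proteins, such as annexins at membranes, nonmuscle myosin, ezrin or p53, and several are also released from cells and bind the receptor RAGE (gene AGER). In the gut and its tumors different cells carry different sets of these proteins, and most of the genes lie side by side in the epidermal differentiation region of chromosome 1. In GRCh37, 9 members lay on chromosome 1 between 151955391 and 153603836, a span of 1648446 bases, all on the minus strand. S100P lay apart on chromosome 4 (6695605 to 6698897, plus strand). S100A3 lies within the annotated span of S100A4 on the same strand, S100A13 overlaps S100A1 on the opposite strand, and S100A6 and S100A11 each overlap a long noncoding RNA on the opposite strand. The strand setting of the counting is not given in the sources used here, so counts of these 5 members are uncertain where such genes overlap.

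Among the members, S100P, S100A4 and S100A2 had RNA that ranged from near absence to high levels between lines, while S100A10 was found in every line. The sequences just before the transcription start of these 4 members are shown as examples. They are the 250 bases before a start in RefSeq's promoter table (GRCh38.p14), read 5′ to 3′ on the gene's strand, and each matched GRCh37 exactly and at 1 place, at chr4:6695355-6695604 (plus strand) for S100P, chr1:153518283-153518532 (minus) for S100A4, chr1:153538321-153538570 (minus) for S100A2 and chr1:151966336-151966585 (minus) for S100A10. The S100A4 and S100A2 windows lie inside the annotated span of their genes, and none of the 4 windows overlaps an annotated exon of its own gene. Capitals mark a TATA motif (TATAAA) in S100P and S100A4, the motif TGANTCA in S100A2, which is the letters bound by AP-1, and a GC box (GGGCGG) in S100A10.
S100P: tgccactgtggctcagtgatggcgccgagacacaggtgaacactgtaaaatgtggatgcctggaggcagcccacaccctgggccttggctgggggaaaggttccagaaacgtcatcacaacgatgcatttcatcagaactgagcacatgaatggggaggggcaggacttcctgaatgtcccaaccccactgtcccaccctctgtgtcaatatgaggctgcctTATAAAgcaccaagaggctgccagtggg
S100A4: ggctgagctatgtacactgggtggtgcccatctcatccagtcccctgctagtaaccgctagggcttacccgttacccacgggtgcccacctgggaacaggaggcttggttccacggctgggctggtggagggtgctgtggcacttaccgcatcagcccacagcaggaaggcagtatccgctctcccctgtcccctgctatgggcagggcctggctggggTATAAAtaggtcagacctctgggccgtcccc
S100A2: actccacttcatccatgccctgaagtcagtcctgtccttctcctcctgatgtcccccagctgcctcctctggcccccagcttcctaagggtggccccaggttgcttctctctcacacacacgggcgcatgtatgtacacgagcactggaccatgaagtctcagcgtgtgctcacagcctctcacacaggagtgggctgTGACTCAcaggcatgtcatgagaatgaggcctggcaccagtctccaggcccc
S100A10: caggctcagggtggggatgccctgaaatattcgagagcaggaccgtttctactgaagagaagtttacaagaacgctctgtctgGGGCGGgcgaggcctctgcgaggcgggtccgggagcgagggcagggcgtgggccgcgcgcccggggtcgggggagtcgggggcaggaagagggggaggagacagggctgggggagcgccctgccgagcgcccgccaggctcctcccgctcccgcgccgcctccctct
The TATA motif starts 28 bases before the start of S100P and 31 bases before that of S100A4. TGANTCA starts 52 bases before this start of S100A2, and GGGCGG 167 bases before the start of S100A10. Searched on both strands, TATAAA was found in 10.7% of the 35116 promoters of the table, TGANTCA (which reads the same on both strands) in 6.57% and GGGCGG in 42.6%. The promoters also differed in CpG content: the ratio of observed to expected CpG was 0.786 for S100A10, 0.741 for S100A11 and 0.803 for S100A6, against a median of 0.558 over all promoters. It was 0.207 for S100P, 0.284 for S100A4, 0.192 for the S100A2 window shown and 0.161 for S100A14. For S100A16, which has 2 windows, it was 0.305 and 0.0496. S100A13, also found in every line, had windows at 0.358, 0.407 (with TATAAA) and 0.838. The other window of S100A2 was at 0.135 and that of S100A3 at 0.191. Annotated exons cover all 250 bases of the S100A6 window, the other S100A2 window and the S100A13 window at 0.358. They cover 93 bases of the S100A13 window at 0.407, 30 for S100A14 and 8 of the S100A16 window at 0.0496. As listed, the windows were not of 2 clear kinds that follow the levels, and some hold exon sequence. A motif match is a description of letters and not evidence of binding.

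Libraries held 12237225 to 20913455 reads on genes (median 15063858). Of the 64 libraries, 54 were most like a library of their own group by the correlation of all genes. Those that were not included non-LRC replicate 2 of HT55 and of SW48 (each nearest to LRC replicate 2 of its line), LRC replicate 4 of SW948 (nearest to a non-LRC library) and replicate 4 of the DMSO day 1 controls (nearest to a DMSO day 6 library). The summed level of 8 colorectal epithelial markers was 219 to 254 CPM (counts per 1000000 reads of the TMM-scaled library) in RKO non-LRCs and 279 to 334 CPM in RKO LRCs, the lowest of all lines, although all 8 were detected there. Of 8 blood and stromal markers 7 were matched to a gene, and their summed level was at most 25.9 CPM in any library.

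The controls labeled DLD1 were more like HCT15 non-LRCs than like sorted DLD1 non-LRCs. All 16 correlated better over all genes with HCT15 non-LRCs (mean r 0.844 to 0.978) than with sorted DLD1 non-LRCs (0.797 to 0.918), both CCS3 lines. S100P shows the gap most plainly: it had 634, 1115, 251 and 196 counts in sorted DLD1 non-LRCs, 4, 5, 3 and 2 in HCT15 non-LRCs, and 3, 4, 3 and 5 in the DMSO day 6 controls. The other controls had 2 to 10 counts of it, except CFSE day 1 replicates 1 and 2, with 102 and 73. Of the 10 members, 7 differed between the DMSO day 6 controls and sorted DLD1 non-LRCs, where 49.4% of 14182 genes did, and 0 differed between these controls and HCT15 non-LRCs, where 2.78% did. S100P was lower in the controls than in sorted DLD1 cells by −7.24 ± 0.60 on the log2 scale (SE, adjusted p = 1.73e-07), while S100A2 was higher by 1.27 ± 0.27 (adjusted p = 0.0011). Whether a label is wrong was not tested, and sorting, dye and culture also differ between these groups. The libraries are therefore called controls labeled DLD1, and no control was set against a sorted sample beyond this check.

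S100 RNA levels were first compared between the 6 lines, in the 24 non-LRC libraries, to see which line carries which member. All 10 members differed between lines in edgeR's F test, as did 98.3% of the 15779 genes tested, so the call itself sets no member apart, and the order and size of the differences are described. S100A6, S100A10 and S100A11 averaged at least 87.2 CPM in every line, as did S100A16 (at least 99.2 CPM), whereas S100P, S100A14 and S100A4 ranged from a few counts per library to means of 276, 329 and 124 CPM, and S100A2 from 2.26 to 2928 CPM. Of 150 tests of a member between 2 lines, 127 passed by edgeR, where 71.1% of tests of all genes over the same 15 pairs of lines did. With lines placed in order of mean level for each member, 30 of the 50 pairs of neighbors differed, and the share of such neighbors over all genes was not counted.

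Levels of the annexin-binding members are given per gene length so that they can be set side by side. S100A6, or calcyclin, which binds the ubiquitin ligase partner CACYBP and ANXA11, reached 511 to 2465 RPKM (CPM divided by the exon length in kilobases) over the lines, S100A11, the partner of ANXA1, 164 to 1314 RPKM, and S100A10, which joins ANXA2 in a membrane-bound complex, 86.1 to 854 RPKM. S100A6 was highest in SW48, at 2021, 2691, 2285 and 2576 CPM, and lowest in DLD1, at 512, 722, 369 and 381 CPM, a 4.82-fold difference between means. SW48 and HT55 were not told apart for S100A6 (adjusted p = 0.386), nor were RKO and SW948 (adjusted p = 0.2), and the other neighbors differed. S100A11 followed much the same order, from 853 ± 57.3 CPM in SW48 to 106 ± 16.1 CPM in DLD1 (mean ± SD, n = 4), with HT55 and SW948 not told apart (adjusted p = 0.199). S100A10 had another order: HT55 was highest, at 828, 835, 897 and 897 CPM, and RKO lowest, at 86.1, 73.9, 85.1 and 104 CPM, with no overlap between RKO and any other line. For S100A10, HCT15 and SW948 (adjusted p = 0.211) and DLD1 and SW48 (adjusted p = 0.289) were not told apart.

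S100P, a member first found in placenta that binds ezrin and RAGE, was nearly a present-or-absent gene across the lines. It had 3880, 3024, 3860 and 4106 counts in HT55 non-LRCs and 2118, 1694, 2095 and 2051 in SW948 non-LRCs, the CCS1 lines. In SW48 it had 7, 3, 4 and 7 counts and in RKO 2, 2, 1 and 0 counts. The mean was 276 ± 33.5 CPM in HT55 (SD, n = 4), 132 ± 3.37 CPM in SW948 and 36.7 ± 27.3 CPM in DLD1, and these 3 lines all differed from each other and from the remaining lines, which were not told apart (adjusted p = 0.607 for SW48 against HCT15 and 0.502 for HCT15 against RKO). HT55 stood 3059-fold above RKO, where the 5 summed counts give a 95% exact Poisson interval of 1353 to 9725 for that ratio (counting error only). The 2 CCS3 lines, known to come from the same tumor, were far apart for S100P, since DLD1 had 196 to 1115 counts and HCT15 2 to 5. Within DLD1 the spread was wide, and non-LRC replicates 1 and 2 had more S100P counts than replicates 3 and 4.

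S100A4, which binds nonmuscle myosin IIA and is known for its link to cell motility, was high in SW48 and HT55, which were not told apart (124 ± 18.7 and 107 ± 9.50 CPM; adjusted p = 0.28). It was 15.3 ± 5.11 CPM in DLD1, 8.43 ± 1.53 CPM in HCT15, 5.91 ± 0.382 CPM in SW948 and 0.208 ± 0.0447 CPM in RKO, and each of these steps passed the test. RKO had 2 to 4 counts of S100A4 per library, 12 in all, so the ratio of SW48 to RKO was 595, with a counting interval of 339 to 1145. S100A2, a p53-binding member best known from squamous epithelium, was the reverse: RKO had 2660, 2653, 3390 and 3009 CPM, which was 1894 RPKM on average. SW48, the other CCS2 line, had 120, 107, 130 and 131 CPM of S100A2, and the remaining 4 lines lay between 2.26 and 7.08 CPM on average. DLD1 and SW948, at the low end, were not told apart (adjusted p = 0.766), and RKO stood 1296-fold above SW948.

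S100A14 and S100A16, which can pair with each other, had opposite extremes in RKO. S100A14, an epithelial member, had 4, 1, 6 and 12 counts in RKO non-LRCs and a mean of 0.397 ± 0.288 CPM, against 329 ± 8.83 CPM in SW948. The ratio of SW948 to RKO was 829, with a counting interval of 547 to 1295. SW948, DLD1, HCT15 and SW48 were not told apart from their neighbors for S100A14 (adjusted p = 0.064, 0.398 and 0.113), and HT55, at 40.9 ± 4.95 CPM, lay below them and above RKO. S100A16 was instead highest in RKO, at 1185, 1185, 1440 and 1310 CPM. The next 4 lines, SW48, HT55, SW948 and DLD1, ran from 231 to 174 CPM and no neighbors among them differed, while HCT15 was lowest at 99.2 ± 7.78 CPM. S100A13, which takes part in the release of FGF1 and binds SYT1, was likewise highest in RKO (330 ± 39.5 CPM), 7.53-fold above SW948, and between 43.8 and 72.2 CPM elsewhere. S100A3, a cysteine-rich member known from the hair cuticle, was low throughout, with at most 86 counts in a library. Its means were 3.0 to 3.89 CPM in SW48, RKO and HT55, which were not told apart, 0.565 CPM in HCT15, 0.509 CPM in DLD1 and 0.152 CPM in SW948.

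**Figure D1:**
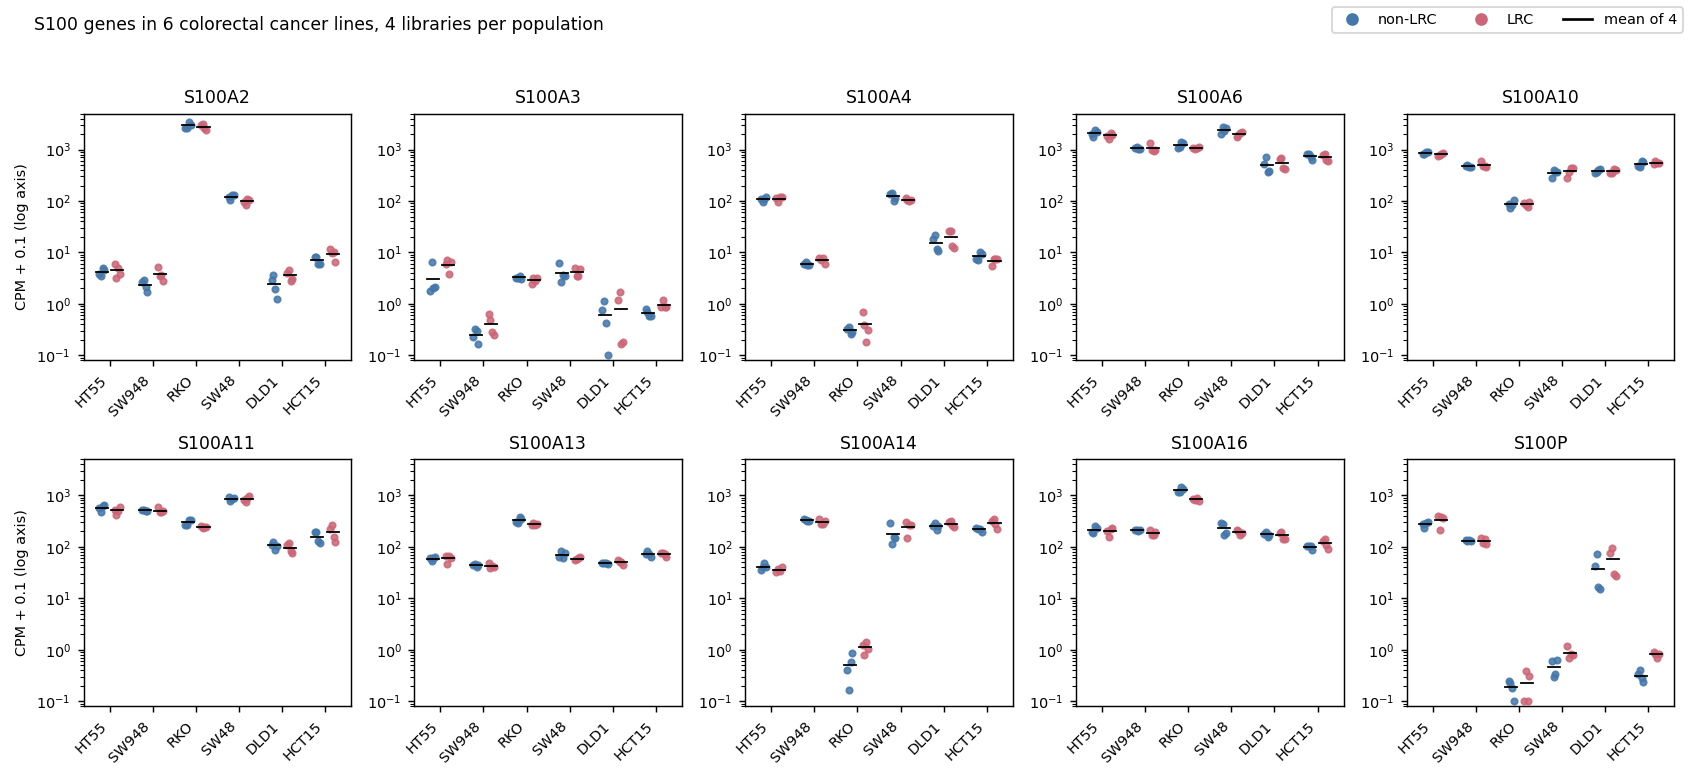
CPM plus 0.1 on a log axis for each member in each line. Points are libraries (blue, non-LRC; red, LRC) and black bars are the mean of 4. RKO has the highest S100A2, S100A13 and S100A16 and the lowest S100A4, S100A10 and S100A14, and S100P is at a few counts in RKO, SW48 and HCT15.

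RKO was therefore at one end of the order, and differed from its neighbor there, for 6 of the 10 members: highest for S100A2, S100A13 and S100A16 and lowest for S100A4, S100A10 and S100A14. How often RKO holds such a place over all genes was not counted, so this number describes the members and does not set them apart. Its S100P was also lowest, but was not told apart from that of HCT15 or SW48 (adjusted p = 0.502 and 0.248). Over the 48 sorted libraries, which share their 6 lines and so are not independent, log2 CPM of S100A2 and S100A13 correlated at r = 0.91, of S100A13 and S100A16 at 0.86, and of S100A6 and S100A11 at 0.92. The most negative correlations were those of S100A13 with S100A14 (−0.92) and of S100A14 with S100A16 (−0.90). Among the 16603 genes tested, with the S100 family left out, the gene most like S100P over these libraries was LINC01559 (r = 0.978). It was PPP1R18 for S100A2 (0.978), NTSR1 for S100A3 (0.896), EPS8L1 for S100A4 (0.966), C15orf61 for S100A6 (0.937) and MID1 for S100A10 (0.982). For S100A13 it was IL11 (0.976), for S100A14 SLC6A20 (0.975) and for S100A16 CBLB (0.956). These values describe the same 6 lines and are driven by differences between them.

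LRCs were next compared with non-LRCs, to find which members differ between cells that kept the dye and cells that diluted it. With all 6 lines in one fit, 0 of 10 members differed by edgeR, where 22.9% of 16603 genes did. Unadjusted p was under 0.05 for 3 members, S100A13, S100A16 and S100P. S100P was higher in LRCs by 0.37 ± 0.16 on the log2 scale (SE, adjusted p = 0.0893). By number it was higher in 19 of 24 sets of an LRC and a non-LRC library, a count that includes SW948 and RKO, where numbers do not pair libraries. It also includes lines with few S100P counts in a library: at most 5 in RKO, 17 in HCT15 and 16 in SW48. S100A16 was at −0.15 ± 0.07 (adjusted p = 0.0882) and S100A3 at 0.37 ± 0.19 (adjusted p = 0.155). Same-numbered libraries deviated together in 4 lines but not in SW948 and RKO, so there the numbers only name libraries, although the block below uses them in every line. With the replicate number of each line as a block, these 3 members passed, S100P at 0.36 (adjusted p = 0.00311), S100A3 at 0.40 (adjusted p = 0.0364) and S100A16 at −0.15 (adjusted p = 0.0463), where 25.5% of genes did. DESeq2 called S100P alone (0.60, adjusted p = 0.0129), and so did edgeR when replicate 2 was left out (0.46, adjusted p = 0.0287). In bulk RNA, fewer cells of a type and less RNA per cell cannot be told apart.

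The size of the LRC difference itself varied between lines for S100A16 (adjusted p = 0.0297) and S100A2 (adjusted p = 0.0328) in a test of the interaction of line and population, in which 14.3% of genes passed. Both were lost when replicate 1, 3 or 4 was left out, with adjusted p of 0.0797 to 0.218 for S100A16 and 0.11 to 0.249 for S100A2. With the block, which again used the numbers of SW948 and RKO, 8 of 10 members passed, where 33.6% of genes did. The exceptions were S100A10 (adjusted p = 0.531) and S100A13 (adjusted p = 0.0563). S100A10 did not pass the LRC test in any line, with or without the block, and its fitted values lay between −0.11 and 0.11 on the log2 scale. The lines are therefore given one by one.

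**Figure D2:**
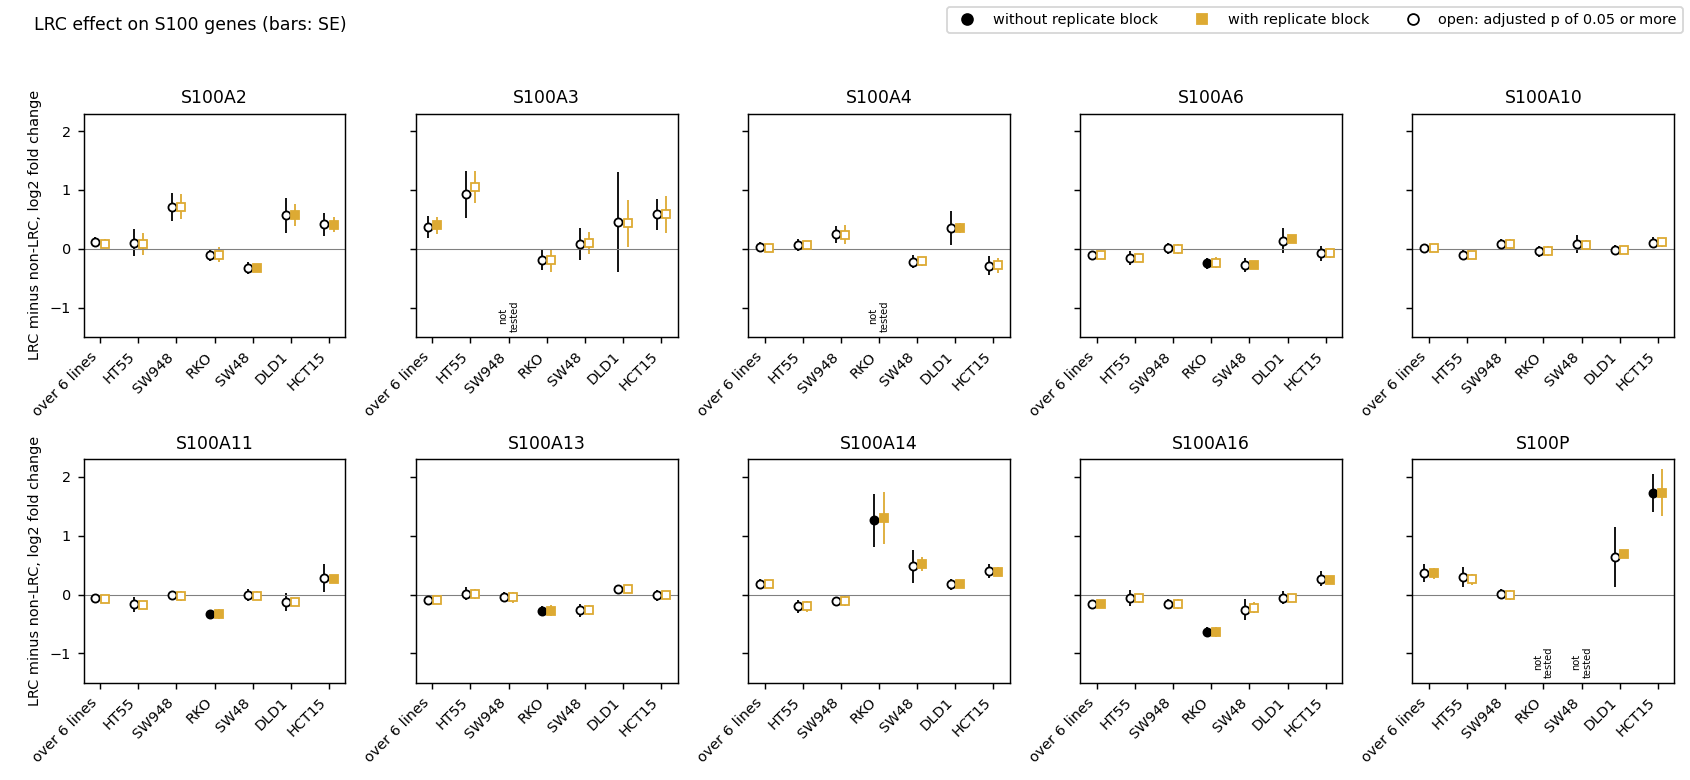
Log2 fold change of LRCs over non-LRCs with its SE for each member, over all lines and in each line. Black circles are fits without the replicate block and gold squares with it, and open symbols have an adjusted p of 0.05 or more. RKO holds all filled black symbols but the one of S100P in HCT15, and filled gold symbols appear also in DLD1, HCT15 and SW48 and over all lines.

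In RKO, 8 members were tested and 5 differed, 4 of them lower in LRCs and 1 higher, where 41.5% of 12731 genes did (21% lower and 20.4% higher). The higher one, S100A14, passed the filter on low counts through the LRCs, so its place in this count is no support. S100A4 and S100P were too low to be tested there. S100A16 fell from 1185, 1185, 1440 and 1310 CPM in non-LRCs to 843, 822, 888 and 785 CPM in LRCs, with no overlap. Its change was −0.64 ± 0.08 on the log2 scale (SE, adjusted p = 3.25e-05). S100A11 fell from 268, 270, 325 and 327 CPM to 248, 231, 241 and 240 CPM, again with no overlap (−0.34 ± 0.08, adjusted p = 0.00361). Both remained called with any one replicate left out. S100A13 fell from 297, 295, 374 and 352 CPM to 270, 289, 266 and 280 CPM (−0.28 ± 0.08, adjusted p = 0.0147), a call lost without replicate 3 (adjusted p = 0.079) or replicate 4 (adjusted p = 0.0856). S100A6 fell by 0.25 ± 0.09 (adjusted p = 0.0453), with non-LRCs at 1078 to 1429 CPM and LRCs at 1037 to 1108 CPM, and this call was lost without replicate 2, 3 or 4 (adjusted p = 0.0689, 0.159 and 0.174). For S100A16, S100A11, S100A13 and S100A6, non-LRC replicates 3 and 4 were above replicates 1 and 2.

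S100A14 was the member that was higher in RKO LRCs, at 13, 12, 16 and 17 counts against 4, 1, 6 and 12. Its change was 1.26 ± 0.45 (adjusted p = 0.0344), but it passed the filter on low counts through the LRCs and remained at a level of about 1 CPM. The call was lost without replicate 1, 2 or 3 (adjusted p = 0.125, 0.0601 and 0.0856) and could not be tested without replicate 4. S100A2, the most abundant member per length in this line, was at −0.11 ± 0.11 (adjusted p = 0.446). Along with these changes, 11 of 12 proliferation markers fell in RKO LRCs, and their summed level was 851 to 1498 CPM in LRCs and 1774 to 1911 CPM in non-LRCs. The part of proliferation in the S100 values was not tested.

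In DLD1, 10 members were tested and 0 differed without a block, where 14.6% of 13592 genes did, and 0 members had an unadjusted p under 0.05. The same-numbered libraries of this line deviated together (correlation of their deviations 0.43 to 0.70). Within each population, replicates 1 and 2 were nearest to each other, and so were replicates 3 and 4. Such a split, shared by both populations, can by itself give these correlations, so the numbers are not shown to pair single libraries. With the replicate number as a block 5 members were higher in LRCs, where 33.8% of genes passed (17.1% higher, 16.6% lower). S100P had 634, 1115, 251 and 196 counts in non-LRCs and 1073, 1417, 439 and 343 in LRCs of replicates 1 to 4. The groups overlap because replicates differ by more than the populations do, while LRCs were above non-LRCs in 4 of 4 pairs. The blocked change of S100P was 0.69 ± 0.07 (SE, adjusted p = 9.49e-08), against 0.64 ± 0.51 without the block (adjusted p = 0.436). S100A4 ran in parallel, at 17.8, 21.4, 11.5 and 10.7 CPM in non-LRCs and 26.5, 26.2, 13.4 and 12.1 CPM in LRCs (blocked 0.35 ± 0.09, adjusted p = 0.00278). S100A2 was higher in 4 of 4 pairs (blocked 0.58 ± 0.19, adjusted p = 0.0202, from 15 to 68 counts per library). S100A14 and S100A6 were each higher in 3 of 4 pairs by smaller amounts, 0.17 ± 0.05 (adjusted p = 0.00534) and 0.16 ± 0.05 (adjusted p = 0.0158). S100A11 was lower in 4 of 4 pairs and did not pass (blocked −0.13 ± 0.05, adjusted p = 0.0558). Of 12 proliferation markers 10 were lower in DLD1 LRCs without a block and 12 with it, and their summed level was 914 to 1349 CPM in LRCs and 1575 to 1721 CPM in non-LRCs. With the block 4 of 8 epithelial markers were higher and 1 lower, and the part of either list in the S100 values was not tested.

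In HCT15, 10 members were tested and 1 differed without a block, where 0.977% of 14017 genes did. That member was S100P, with 4, 5, 3 and 2 counts in non-LRCs and 17, 11, 10 and 11 in LRCs, and its change was 1.73 ± 0.33 (adjusted p = 0.046). S100P passed the filter through the LRCs, stayed under 1 CPM in both populations, and lost the call with no filter (adjusted p = 0.0534) and in the fit of all 48 libraries (adjusted p = 0.361). It could not be tested with a replicate left out. Same-numbered libraries of HCT15 also deviated together (0.43 to 0.74), with the same split of replicates 1 and 2 from 3 and 4 as in DLD1. With the block 5 members were higher in LRCs, where 21.3% of genes passed (11.3% higher, 10% lower). Of these, 4 had at least 88 counts in every HCT15 library and are given next. The remaining member is counted without a blocked value here. S100A14 went from 235, 222, 222 and 198 CPM to 315, 342, 273 and 224 CPM, higher in 4 of 4 pairs (blocked 0.39 ± 0.07, adjusted p = 0.000924). S100A11 went from 193, 191, 128 and 117 CPM to 222, 265, 153 and 122 CPM (0.26 ± 0.07, adjusted p = 0.0119). S100A16 (0.25 ± 0.07, adjusted p = 0.0151) and S100A2 (0.41 ± 0.13, adjusted p = 0.0293) were also higher in 4 of 4 pairs. With the block 4 of 12 proliferation markers were higher in HCT15 LRCs (summed 1342 to 2404 CPM, against 1252 to 2126 CPM in non-LRCs) and 2 of 8 epithelial markers were lower, and their part was not tested. S100A16 and S100A11 were higher in LRCs of HCT15 with the block and lower in LRCs of RKO without it. For both the interaction with the block passed (adjusted p = 8.13e-05 and 0.00415), and without the block it passed for S100A16 but not for S100A11. That test asks whether any line differs and does not set HCT15 against RKO.

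In SW48, 9 members were tested (S100P was too low) and 0 differed without a block, where 0.796% of 13196 genes did. Same-numbered libraries deviated together in this line too (0.30 to 0.75), and with the block 3 members differed, where 9.69% of genes did. S100A2 was lower in LRCs in 4 of 4 pairs, from 120, 107, 130 and 131 CPM to 95.8, 83.1, 109 and 104 CPM (blocked −0.32 ± 0.06, adjusted p = 0.0076). The groups overlapped by 1 library, since the highest LRC library was just above the lowest non-LRC library. S100A14 was higher in 4 of 4 pairs, from 290, 112, 153 and 145 CPM to 302, 150, 263 and 263 CPM (0.53 ± 0.12, adjusted p = 0.0206). S100A6 was lower in 4 of 4 pairs, from 2021, 2691, 2285 and 2576 CPM to 1735, 1917, 2112 and 2151 CPM (−0.27 ± 0.07, adjusted p = 0.0414). With the block 9 of 12 proliferation markers were lower in SW48 LRCs (summed 538 to 1314 CPM, against 610.5 to 2004 CPM in non-LRCs), and their part was not tested. S100A2, lower in SW48 LRCs, was higher in LRCs of DLD1 and HCT15 with the block. Its interaction with the block passed (adjusted p = 0.00033), a test of any difference among the lines and not of these lines alone.

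In the CCS1 lines HT55 and SW948, 10 and 9 members were tested and 0 differed, as did 0% of 13391 and 0% of 13674 genes by edgeR. At an unadjusted p under 0.05 there were 1006 genes in HT55 and 2350 in SW948, and DESeq2 called 37 and 245 genes. Same-numbered libraries of HT55 deviated together (0.27 to 0.57), and with the block 0 members passed. S100A6, S100A10, S100A11 and S100A14 were each lower in HT55 LRCs in 4 of 4 pairs, at −0.11 to −0.20 with the block (adjusted p of 0.275 to 0.416). In HT55, S100A3 had 23, 85, 25 and 28 counts in non-LRCs and 83, 85, 64 and 83 in LRCs (0.92 ± 0.41, adjusted p = 0.655). Non-LRC replicate 2, whose nearest library is an LRC library, stands alone there, and without that library the change was 1.61 ± 0.26 (adjusted p = 0.00427). That library was left out, after seeing the data, for being most like an LRC library. Such a choice widens the difference between populations by itself, so this value is no test of S100A3. S100P in HT55 had 3880, 3024, 3860 and 4106 counts in non-LRCs and 5422, 2549, 6645 and 4839 in LRCs (0.29 ± 0.17, adjusted p = 0.742), and it was called only with both libraries of replicate 2 left out (0.39, adjusted p = 0.013). In SW948, S100A2 had 41, 37, 32 and 25 counts in non-LRCs and 76, 53, 57 and 52 in LRCs, counts that did not overlap although the CPM did (0.71 ± 0.24, adjusted p = 0.187). Without LRC replicate 4, which is nearest to a non-LRC library, it was 0.85 (adjusted p = 0.0216). The same limit holds for this choice of library, so the value is no test of S100A2. S100P in SW948, at 128 to 135 CPM in non-LRCs, was at 0.00 ± 0.08 (adjusted p = 0.985).

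**Figure D3:**
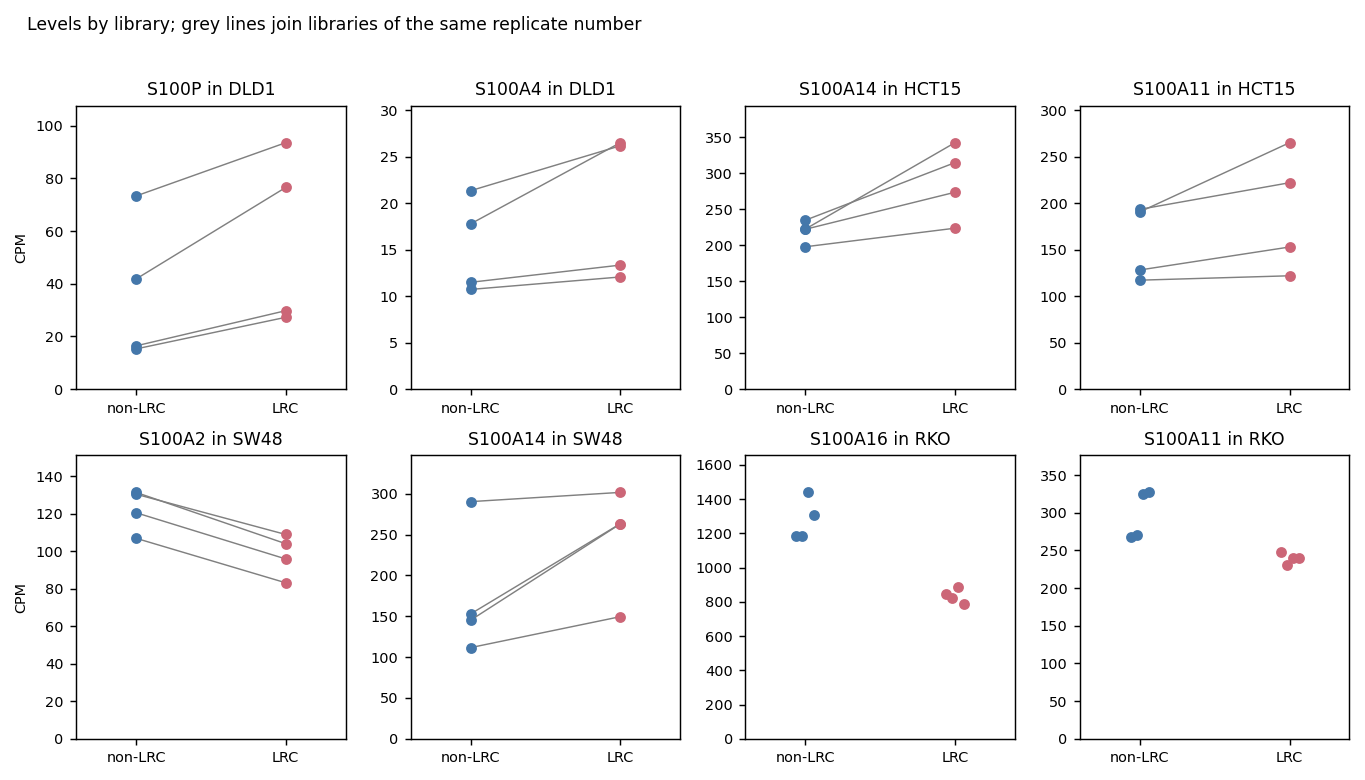
CPM of selected members in each library of a line, non-LRC at left and LRC at right. Grey lines join libraries of the same replicate number in the panels of DLD1, HCT15 and SW48, where same-numbered libraries deviated together, and not in those of RKO, where they did not. S100P and S100A4 in DLD1, S100A14 and S100A11 in HCT15 and S100A14 in SW48 are higher in LRCs in 4 of 4 pairs, S100A2 in SW48 is lower in 4 of 4, and in RKO S100A16 and S100A11 do not overlap between populations.

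Genes that act with the S100 proteins were counted in the fit over 6 lines, in which 22.9% of genes passed. Of 13 annexins, the membrane-binding proteins that several S100 dimers bridge, 10 were tested, and ANXA3 rose by 0.21 ± 0.05 (adjusted p = 0.00133) and ANXA13 fell by 0.51 ± 0.15 (adjusted p = 0.0108). ANXA3 had at most 6 counts in an RKO library. ANXA13 had more than 2 counts only in HT55 (means of 28.3 CPM in non-LRCs and 16.8 CPM in LRCs) and SW948 (7.92 and 6.04 CPM). Of 14 binding partners 13 were tested, and the phosphatase PPP5C fell by 0.19 ± 0.04 (adjusted p = 6.01e-05) while SYT1 rose by 0.39 ± 0.14 (adjusted p = 0.0466). With the block, PPP5C still passed and SYT1 did not. SYT1 had more than 7 counts in a sorted library only in SW48 (means of 30.6 CPM in non-LRCs and 31.6 CPM in LRCs) and SW948 (14.5 and 21.3 CPM). Of 4 receptors, AGER, which encodes RAGE, fell by 0.30 ± 0.10 (adjusted p = 0.0233). The median change was −0.01 for annexins and −0.05 for binding partners, beside 0.01 for all genes. Of 11 other S100 genes only 3 were high enough to be tested, and S100A9, a subunit of calprotectin, passed at 1.60 ± 0.39 (adjusted p = 0.00269). Only the SW48 LRCs held more than 16 counts of it in a library, at 14 to 39 counts against 0 to 2 in SW48 non-LRCs. The SW948 means were nearly equal, 0.646 CPM for LRCs and 0.634 CPM for non-LRCs, and RKO had 0 counts in both. Of 64 protein-coding genes within 500000 bases of a member, 42 were tested, 10 rose and 4 fell. Of 12 proliferation markers 5 fell and 0 rose, with a median of −0.29. In RKO, 1 of 7 annexins tested rose and 2 fell, and 2 of 11 partners tested rose and 4 fell, where 20.4% of genes rose and 21% fell.

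The controls labeled DLD1 were compared to see which members move with time in culture and with the dye itself, with 9 members tested and S100P too low. The 4 contrasts share groups and are given side by side. Replicates 1 and 2 of the CFSE day 1 group stand apart from replicates 3 and 4: S100A2 was at 19.1 and 19.9 CPM against 7.47 and 8.62 CPM, S100A16 at 273 and 317 against 162 and 172 CPM, S100A10 at 628 and 677 against 415 and 404 CPM, and S100P at 102 and 73 counts against 5 and 4. Results that rest on that group are given with and without them.

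From day 1 to day 6 in DMSO, 2 members rose and 0 fell, where 25.5% of 14518 genes changed (12.4% higher, 13.1% lower). S100A14 went from 98.7, 98.2, 93.0 and 140.0 CPM to 286, 197, 155 and 166 CPM, with no overlap (0.90 ± 0.18, adjusted p = 0.00681). S100A4 went from 5.49, 6.29, 5.32 and 7.67 CPM to 11.5, 8.41, 8.26 and 9.21 CPM, also with no overlap (0.59 ± 0.17, adjusted p = 0.0211). Day 1 replicate 4, whose nearest library is from day 6, was the highest day 1 library for both, and without it the changes were 1.06 (adjusted p = 0.000255) for S100A14 and 0.71 (adjusted p = 0.00291) for S100A4. Leaving out a library for being like day 6 widens the change over time by itself, so these values are no test. Both calls were lost without replicate 1, 2 or 3 (adjusted p of 0.0812 to 0.131 for S100A14 and 0.134 to 0.254 for S100A4). The summed proliferation markers fell over the same days, from 2322 to 3546 CPM to 1754 to 2460 CPM, and 5 of 8 epithelial markers rose, and their part in the S100 values was not tested.

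From day 1 to day 6 with CFSE, 2 members rose and 2 fell, where 39.3% of genes changed (20.2% higher, 19.1% lower). S100A4 rose again, from 3.01, 3.60, 3.96 and 3.41 CPM to 5.97, 6.92, 7.57 and 7.40 CPM (0.96 ± 0.17, adjusted p = 0.000763). S100A6 rose from 326, 397, 393 and 390 CPM to 675, 664, 496 and 599 CPM (0.65 ± 0.12, adjusted p = 0.000846). Neither overlapped between days, and both stayed called without the first 2 replicates of the CFSE day 1 group (S100A4 0.84, adjusted p = 0.0166, and S100A6 0.54, adjusted p = 0.0188). S100A16 (−0.84 ± 0.22, adjusted p = 0.00625) and S100A2 (−0.86 ± 0.28, adjusted p = 0.0202) fell, but without those 2 libraries neither call stood (S100A16 −0.42, adjusted p = 0.142, and S100A2 −0.13, adjusted p = 0.66), while S100A10 was then called (0.39, adjusted p = 0.0451). S100A14, which rose in DMSO, was at −0.18 ± 0.18 with CFSE (adjusted p = 0.443). Its time effect differed between dyes by −1.08 ± 0.25 (adjusted p = 0.0498, where 0.999% of genes passed), a call lost without replicate 1, 2 or 3 (adjusted p of 0.188 to 0.471) and without CFSE day 1 replicates 1 and 2 (adjusted p = 0.306). With day 1 DMSO replicate 4 left out, a choice that again widens the change in DMSO, it was −1.23 (adjusted p = 0.00732). Over the same days with CFSE, 5 of 12 proliferation markers rose (summed 2598 to 3065 CPM to 3424 to 3960 CPM) and 5 of 8 epithelial markers rose, and their part in the S100 values was not tested.

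On day 1, CFSE and DMSO controls differed in 4 members, where 21.8% of genes did (9.73% higher with CFSE, 12% lower). S100A2 (1.29 ± 0.28, adjusted p = 0.00552) and S100A16 (0.94 ± 0.22, adjusted p = 0.00741) were higher with CFSE, and S100A4 (−0.80 ± 0.17, adjusted p = 0.00566) and S100A6 (−0.64 ± 0.12, adjusted p = 0.00304) were lower, none of them with overlap between groups. Without CFSE day 1 replicates 1 and 2, none of the 4 calls stood: S100A2 was at 0.51 (adjusted p = 0.235), S100A16 at 0.46 (adjusted p = 0.263), S100A4 at −0.73 (adjusted p = 0.103) and S100A6 at −0.59 (adjusted p = 0.06). With replicate 2 of all groups left out, S100A2 (adjusted p = 0.0791), S100A16 (0.0697) and S100A4 (0.0681) lost the call, and with replicate 1 left out S100A2 did (adjusted p = 0.0615). On day 6, when sorted cells were taken, 1 member differed, where 5.14% of genes did. S100A14 was lower with CFSE, at 139, 130, 115 and 125 CPM against 286, 197, 155 and 166 CPM (−0.67 ± 0.18, adjusted p = 0.0405), with no overlap, and the call was lost without replicate 1, 2 or 3 (adjusted p of 0.117 to 0.32). On the same day 11 of 12 proliferation markers were higher with CFSE, and their part in the S100A14 value was not tested.

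**Figure D4:**
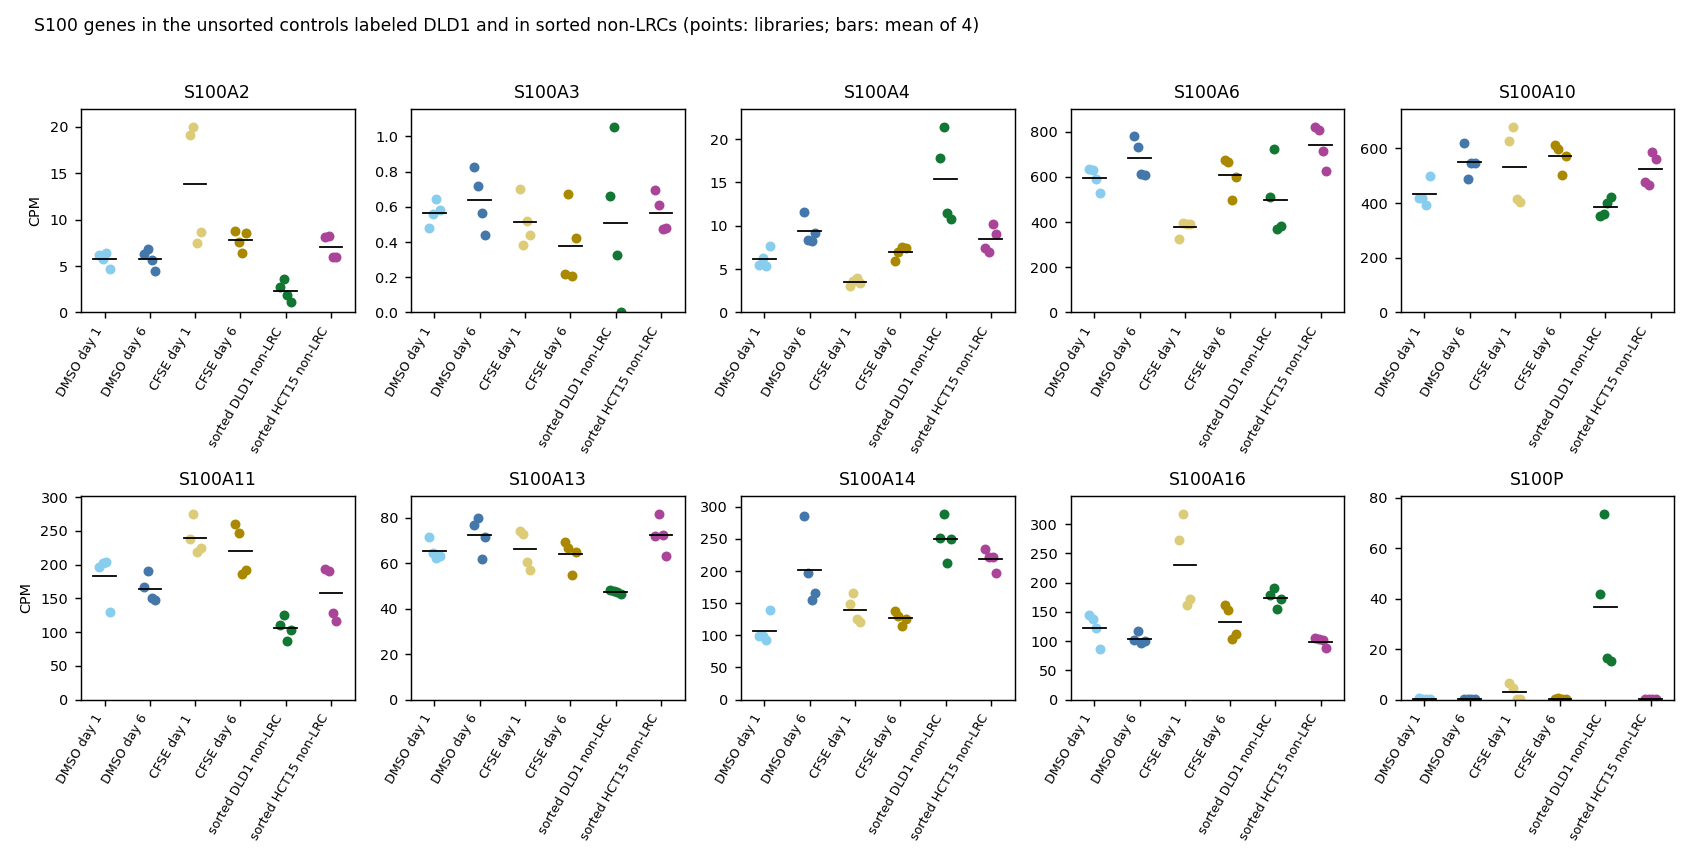
CPM of each member in the controls labeled DLD1 (DMSO or CFSE, day 1 or day 6) beside sorted non-LRCs of DLD1 and HCT15. Points are libraries and bars the mean of 4. S100P is at 15.2 to 73.3 CPM in sorted DLD1 and near 0 in HCT15 and in most controls, and 2 of 4 CFSE day 1 libraries stand apart for S100A2, S100A10, S100A16 and S100P.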

How the data were processed

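RNA was sequenced in 64 libraries from 6 colorectal cancer cell lines, in 16 groups of 4. LRC and non-LRC libraries are fractions sorted from CFSE-loaded spheroid cultures, so they need not be separate cultures. Per library, the authors deposited whole-number read counts per gene, not normalized. TopHat, HTSeq and DESeq, without versions, and the build hg19 are named in the submitters' processing notes, and the strand setting and gene annotation are not given in the sources used here. Summary lines that name no gene were left out, and reads outside genes were 5.19% to 14.8% of reads. Symbols and GRCh37 positions came from GENCODE 44.

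Groups were taken from the sample labels. Counts were tested in R 4.3.3 with edgeR 4.0.16 (TMM, quasi-likelihood F test, two-sided, Benjamini-Hochberg over all genes tested, threshold 0.05), for genes that reached 10 counts in 4 or more libraries of a fit, after trial on simulated counts. Lines were fitted over all 48 sorted libraries with line as a term and one by one, levels on the 24 non-LRC libraries, and controls on 4 group means. CPM used TMM-scaled library sizes and RPKM the summed exon length. Replicates were biological quadruplicates. Numbers were taken to pair libraries where each same-numbered pair's deviations from the group means correlated by over 0.1, which held in HT55 (0.27 to 0.57), SW48, DLD1, HCT15 and the CFSE controls over time (0.18 to 0.33), and did not in SW948 (−0.08 to 0.38), RKO (−0.18 to −0.03) and the other contrasts of controls. This rule set no different-numbered libraries against each other, so a split between replicates shared by both groups can also meet it. Alternatives were DESeq2 1.42.0, other filters and scalings, the replicate block, other sets of samples, and libraries left out. Those chosen by nearest library were added after seeing the data, and leaving them out widens the difference between their groups by itself. All 10 members are named, with listed partners that passed over 6 lines and the gene most like each member, of which 1 is not reported here. Members and lists were chosen with earlier results of these data known.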

Additional observations from a re-analysis of the deposited data

Results flagged for a closer look

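A library far from the 3 others of its group (by Dixon's test) was looked for in 144 sets of 4 libraries, of which chance alone would give 7.2, and 9 were found. In the DMSO day 1 controls, replicate 4 had the lowest S100A11 (130 CPM, others 197 to 204 CPM) and the highest S100A14 (140.0 CPM, others 93.0 to 98.7 CPM). In HT55 non-LRCs, replicate 2 had the highest S100A3, at 6.40 CPM against 1.65 to 2.06 CPM, and in HT55 LRCs replicate 2 had the lowest S100P, at 209.6 CPM against 369 to 389 CPM. S100A3 in HCT15 LRCs was highest in replicate 2 (1.08 CPM). S100A4 was lowest in replicate 1 of HCT15 LRCs (5.42 CPM) and highest in replicate 2 of SW948 non-LRCs (6.48 CPM). S100A6 was lowest in replicate 1 of the CFSE day 1 controls (326 CPM) and highest in replicate 1 of SW948 LRCs (1319.7 CPM).

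The LRC effect differed between lines by the interaction test for S100A16 (adjusted p = 0.0297) and S100A2 (adjusted p = 0.0328), and the time effect differed between dyes for S100A14 (adjusted p = 0.0498).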

How the results depend on the processing

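Levels between lines kept all 10 members under each scaling and with any replicate left out, and 6 were testable and called with at least 10 counts in every library. Of the 50 neighboring pairs, 30 differed, 28 to 32 with a replicate left out and 19 with that filter. The counts below are of members alone, and the share of all genes called also moved between fits. With the block it went from 22.9% to 25.5% over 6 lines and from 14.6% to 33.8% in DLD1. A changed count therefore does not set the members apart from other genes. For LRCs over 6 lines (0 called), DESeq2 gave 1, lines weighted equally 3, leaving out DLD1, HCT15 or HT55 1 each, the replicate block 3, and leaving out a replicate 0 to 1. In DLD1 the block gave 5 in place of 0. In HCT15 (1 called) the block gave 5, while DESeq2 (no adjusted p for S100P), all 48 libraries in one fit, no filter, 10 counts in every library and each replicate left out (0 to 0) gave 0. In RKO (5 called), one fit of 48 libraries gave 2, 10 counts in every library 3, and replicates left out 2 to 4. SW48 gave 3 with the block and 0 to 1 with a replicate left out. HT55 gave 0 to 2 with a replicate left out and 1 without non-LRC replicate 2 alone. SW948 gave 1 with no filter and 1 without LRC replicate 4 alone, and its block, for numbers that do not pair these libraries, moved the genes called from 0 to 501. For the interaction of line and population (2 called), the block gave 8 and replicates left out 0 to 3.

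In the controls, time in DMSO (2 called) gave 1 without TMM, 1 with no filter, 1 with only its 8 libraries and 0 to 2 with a replicate left out. Time with CFSE (4 called) gave 3 to 4. Dye on day 1 (4 called) gave 0 without CFSE day 1 replicates 1 and 2 and 1 to 6 with a replicate left out. Dye on day 6 (1 called) gave 2 with the block, 2 without DMSO day 1 replicate 4 and 0 to 1 with a replicate left out. The difference of time effects between dyes (1 called) gave 0 without CFSE day 1 replicates 1 and 2, 0 with DESeq2's size factors and 0 to 1 with a replicate left out. The block changed no other count of members by more than 1.5 times. Leaving out TMM shifted the median of all genes by −0.13 (log2) for time in DMSO, −0.11 for time with CFSE and by up to −0.41 between lines (HT55 minus HCT15). Of 1364 alternative values of single members, 52 had the other sign, at most 0.33 in size, and 0 of those were called in either fit. Fewer libraries and fewer genes tested are part of the left-out and filtered fits, and the cause was otherwise not tested. Members at a few counts (S100P in HCT15, RKO and SW48, S100A14 and S100A4 in RKO, S100A3 in SW948) are limited by depth.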
